A study of Mus musculus with 12 samples.

Results

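Interferon-stimulated genes are the genes that cells switch on when an interferon binds its receptor. The 38 genes described here were listed by symbol, as genes of the response to type I and type II interferons. They are 38 of the 53452 genes of the count table, and 38 of 38 were among the 16036 genes that passed the filter on low counts. The cells are called HSCs in the labels, taken here to mean hepatic stellate cells, pericytes that store vitamin A. They came fresh from the liver of wild-type mice and were cultured for 12 h before the medium was changed. The compound was riociguat, a stimulator of soluble guanylate cyclase, the enzyme that makes cyclic GMP. It was present for 6, 12 or 24 h, and the control cells received its solvent DMSO for 12 h, with 3 libraries in each of the 4 groups. Riociguat was added 18 h after the medium change for the 6 h exposure, 12 h after it for the 12 h exposure and at the change for the 24 h exposure, and DMSO was added 12 h after it. By these times all 4 groups ended at the same time after the medium change. Exposure time and the stage of culture at addition go together. No dose is given in the sources used here. The labels do not say whether replicates were separate animals, so p-values reflect the spread between these libraries alone, and that spread may be technical.

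Type I interferons signal through a receptor made of Ifnar1 and Ifnar2, the kinases Jak1 and Tyk2, and a complex that holds Stat2 and Irf9 and binds the interferon-stimulated response element in the promoters of target genes. Interferon gamma signals through Ifngr1 and Ifngr2 and acts on promoters through the gamma-activated site. The products block viral entry and translation, sense foreign RNA and DNA, cut antigens for display on class I molecules, and feed back on the pathway. Liver cells other than immune cells, stellate cells among them, carry these receptors and can respond.

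Promoter windows were available from RefSeq (GRCm38.p6) for 29 of the 38 genes, each with 250 bases before and 50 after the annotated start. The motif GAAANNGAAA, the core of the interferon-stimulated response element, was searched on both strands. It was present in 13 of 29 windows (44.8%) against 1079 of all 27025 windows (3.99%). With a C added (GAAANNGAAAC) the shares were 37.9% of these windows and 0.944% of all. The gamma-activated site TTCNNNGAA, which reads the same on both strands, was found in 7 of 29 windows (24.1%) and in 9.55% of all windows. A match is a description of the letters and does not show that a factor bound there. The bases before the start are printed for the 6 genes with the motif that stood highest in the library described below, and for Ifit2. Ifit2 lies beside Ifit3 and Ifit1 but did not stand high there, and it was picked as a contrast after its values were seen. Capitals mark GAAANNGAAA on either strand, and runs of overlapping matches are joined.

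Gbp3, chr3:142559794-142560043, plus strand: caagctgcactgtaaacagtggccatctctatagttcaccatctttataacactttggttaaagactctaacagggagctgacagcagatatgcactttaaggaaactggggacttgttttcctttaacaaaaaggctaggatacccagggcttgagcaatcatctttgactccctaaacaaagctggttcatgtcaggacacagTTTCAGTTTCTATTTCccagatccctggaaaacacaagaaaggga
Ifit3, chr19:34583279-34583528, plus strand: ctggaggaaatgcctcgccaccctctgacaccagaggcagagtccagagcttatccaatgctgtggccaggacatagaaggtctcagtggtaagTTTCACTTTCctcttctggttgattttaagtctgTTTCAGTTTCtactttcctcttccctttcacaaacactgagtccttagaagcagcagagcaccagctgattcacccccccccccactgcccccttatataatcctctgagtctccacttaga
Ifit1, chr19:34640639-34640888, plus strand: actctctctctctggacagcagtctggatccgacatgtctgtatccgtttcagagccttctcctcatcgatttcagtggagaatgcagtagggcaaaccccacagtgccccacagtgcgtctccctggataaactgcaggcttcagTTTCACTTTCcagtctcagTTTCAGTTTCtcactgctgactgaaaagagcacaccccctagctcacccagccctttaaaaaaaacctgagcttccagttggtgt
Isg15, chr4:156200819-156201068, minus strand: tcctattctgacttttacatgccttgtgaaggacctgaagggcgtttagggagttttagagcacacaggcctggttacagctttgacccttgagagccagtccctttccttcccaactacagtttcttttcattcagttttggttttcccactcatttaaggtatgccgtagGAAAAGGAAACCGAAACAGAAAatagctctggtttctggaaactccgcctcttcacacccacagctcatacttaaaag
Oas3, chr5:120777660-120777909, minus strand: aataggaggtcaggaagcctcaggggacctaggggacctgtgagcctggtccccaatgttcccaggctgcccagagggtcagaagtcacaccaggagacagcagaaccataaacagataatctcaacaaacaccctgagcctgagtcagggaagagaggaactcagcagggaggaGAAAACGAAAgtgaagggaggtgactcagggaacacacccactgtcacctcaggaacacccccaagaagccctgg
Stat2, chr10:128270248-128270497, plus strand: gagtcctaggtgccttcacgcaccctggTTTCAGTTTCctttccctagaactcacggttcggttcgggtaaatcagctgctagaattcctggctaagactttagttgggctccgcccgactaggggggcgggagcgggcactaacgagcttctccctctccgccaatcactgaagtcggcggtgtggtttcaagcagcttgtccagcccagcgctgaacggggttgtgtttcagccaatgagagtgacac
Ifit2, chr19:34550444-34550693, plus strand: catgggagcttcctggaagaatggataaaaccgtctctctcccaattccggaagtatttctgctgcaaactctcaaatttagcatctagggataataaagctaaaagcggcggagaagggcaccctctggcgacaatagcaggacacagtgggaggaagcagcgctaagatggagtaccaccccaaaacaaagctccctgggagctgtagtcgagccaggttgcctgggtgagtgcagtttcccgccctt

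Isg15 had 3 matches in a row, Gbp3, Ifit3 and Ifit1 had 2 each, and Oas3 and Stat2 had 1. The Ifit2 window held no GAAANNGAAA and 1 gamma-activated site. Sequence outside the windows was not searched, for Ifit2 as for the other genes, so the motif may lie elsewhere. Of the 17 genes with a window that were at least 1.5 times higher in the library described below than in both other libraries of its group, 9 held GAAANNGAAA and 1 held TTCNNNGAA. Of the other 12 genes with a window, 4 held the first motif and 6 the second. The motif therefore occurred on both sides of that division, in Bst2, Gbp2, Gbp7 and Ddx58 as well as in Isg15.

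Library totals ran from 12953096 to 27358893 counts. Levels are given as CPM, each gene's count relative to its library's TMM-scaled total. Stellate markers such as Reln (1352 to 1703 CPM), Des (129 to 208 CPM) and Pdgfrb (176 to 251 CPM) were present in every library, and 12 of 12 stellate markers were detected. Marker sums of other cells were 802 to 1278 CPM for endothelial cells, 530 to 1300 CPM for hepatocytes, 245 to 328 CPM for cholangiocytes, 68.1 to 82.4 CPM for macrophages and 1.73 to 4.65 CPM for lymphocytes. In such bulk samples, fewer cells of a type and less RNA per cell cannot be told apart.

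One library, riociguat 12 h replicate 3, was known beforehand to stand apart in these genes. Results that rest on it are given with and without it. Summed over the 38 genes, levels were 642, 675 and 650 CPM with DMSO and 668, 652 and 632 CPM at 6 h. At 12 h they were 658, 665 and 1076 CPM, and at 24 h 782, 773 and 677 CPM. Replicate 3 at 12 h was the highest of the 12 libraries, while the other libraries of its group lay within the range of the DMSO libraries. The 24 h libraries all lay above the DMSO range, replicate 3 by a narrow margin. The group means ± SD (n = 3) were 656 ± 17.3 CPM with DMSO, 651 ± 17.9 at 6 h, 800 ± 240 at 12 h and 744 ± 58.2 at 24 h.

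**Figure D1:**
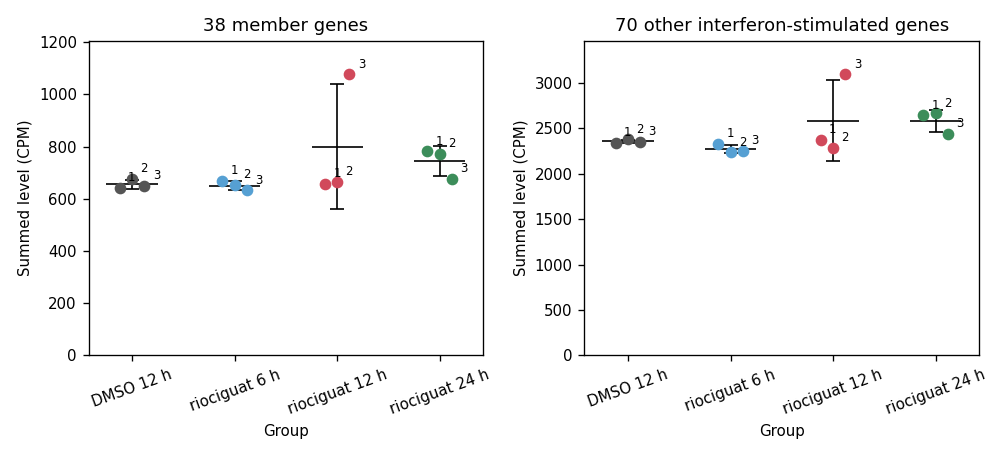
Summed level in CPM (vertical axes, from 0) of the 38 interferon-stimulated genes (left) and of 70 other interferon-stimulated genes (right) in each library, by group, with replicate numbers beside the points, the mean as a line and the SD as bars (n = 3). Riociguat 12 h replicate 3 is the highest of the 12 libraries in both panels, at 1076 CPM and 3094 CPM.

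In riociguat 12 h replicate 3, 35 of the 38 genes were above both other libraries of the group. In 30 genes it was the highest of all 12 libraries. The shares of all genes tested were not taken for these counts. A total of 24 genes (63.2%) reached at least 1.5 times both other libraries, where 2.61% of all genes tested did so. At 2 times there were 15 (39.5%), where 0.91% of all genes tested reached it. No gene of the 38 was lower by a factor of 1.5, against 2.96% of all genes tested. In the other 11 libraries, between 0 and 2 of the 38 genes stood at least 1.5 times above both others of their group, and between 1.97% and 4.4% of all genes did. The count of 24 was the same with DESeq2 size factors and with plain library totals. These counts describe single libraries and carry no test.

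**Figure D2:**
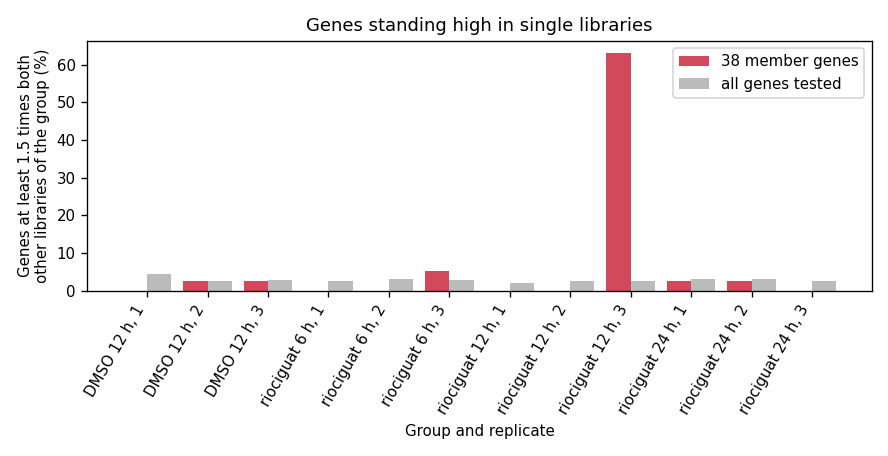
Share of genes (vertical axis, percent, from 0) at least 1.5 times the CPM in both other libraries of the same group, for each of the 12 libraries, for the 38 interferon-stimulated genes (red bars) and all genes tested (grey bars). Riociguat 12 h replicate 3 is at 63.2% for the 38 genes and 2.61% for all genes.

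The transcription factors carried the pattern in part. Irf7 encodes the factor that amplifies type I interferon production. Its levels were 6.79, 6.95 and 6.10 CPM with DMSO, 6.45, 6.70 and 4.56 at 6 h, 8.62, 6.36 and 27.2 at 12 h and 8.25, 8.31 and 4.11 at 24 h. A single library was thus 3.16 times above the next in its group, and the other 11 lay between 4.11 and 8.62 CPM. Irf9, the DNA-binding subunit of the type I complex, measured 20.5, 26.4 and 26.7 CPM with DMSO, 19.6, 20.8 and 19.2 at 6 h, 23.2, 16.5 and 45.6 at 12 h and 31.6, 29.1 and 23.2 at 24 h. Stat2, its partner, measured 21.5, 22.4 and 23.5 CPM with DMSO, 23.7, 24.5 and 20.6 at 6 h, 19.6, 22.6 and 38.7 at 12 h and 28.5, 27.8 and 23.7 at 24 h. Both were highest in riociguat 12 h replicate 3, at 1.96 and 1.71 times the higher of the other 12 h libraries. Irf1, the factor induced most directly by interferon gamma, was the exception at 36.8, 37.8 and 38.4 CPM in the 12 h libraries, a ratio of 1.02.

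The genes of the ISG15 system, a ubiquitin-like tag and its enzymes, all stood high in that library. Isg15, the tag itself, measured 4.16, 6.61 and 3.49 CPM with DMSO, 6.92, 5.91 and 4.37 at 6 h, 6.49, 5.03 and 15.6 at 12 h and 8.02, 10.3 and 6.78 at 24 h. Usp18, which removes the tag and dampens the receptor, measured 3.25, 2.91 and 2.76 CPM with DMSO, 1.89, 2.88 and 3.11 at 6 h, 3.05, 3.47 and 12.1 at 12 h and 4.44, 4.21 and 1.73 at 24 h. For Usp18 the highest and the lowest of the 12 libraries were riociguat 12 h replicate 3 and riociguat 24 h replicate 3. Herc6, a ligase for the tag in mice, had a ratio of 1.75.

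Of the 9 antiviral effectors, 6 reached 1.5 times. Rtp4, a chaperone of membrane receptors that also restricts viruses, measured 5.89, 4.47 and 4.21 CPM with DMSO, 3.54, 3.35 and 3.86 at 6 h, 4.99, 4.58 and 20.9 at 12 h and 10.4, 9.61 and 5.49 at 24 h. Ifit3, which works with Ifit1, measured 7.13, 7.46 and 7.36 CPM with DMSO, 3.38, 6.42 and 5.12 at 6 h, 8.08, 5.12 and 21.2 at 12 h and 9.83, 9.31 and 9.50 at 24 h. Ifit3 was therefore also above all DMSO libraries in all 24 h libraries and below them in all 6 h libraries. Cmpk2, a mitochondrial nucleotide kinase, Rsad2, the antiviral enzyme viperin, and Mx2, a dynamin-like GTPase, stood at 2.03, 1.62 and 2.90 times. Mx2 and its neighbour Mx1 had low counts, and Mx1 (6 to 14 counts in the 12 h libraries) had a ratio of 1.10. Bst2, the tether that holds budding virus, measured 44.2, 42.0 and 38.1 CPM with DMSO, 53.1, 47.2 and 41.0 at 6 h, 46.0, 43.4 and 53.3 at 12 h and 43.8, 39.8 and 41.3 at 24 h, with a ratio of 1.16.

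Among the 9 RNA sensors and effectors, 6 reached 1.5 times. Zbp1, a sensor of Z-form nucleic acid, measured 1.20, 1.26 and 0.920 CPM with DMSO, 1.73, 1.16 and 0.667 at 6 h, 0.678, 0.867 and 5.88 at 12 h and 1.99, 2.08 and 0.989 at 24 h. Oas2, an oligoadenylate synthetase that activates RNase L, measured 0.718, 1.35 and 1.02 CPM with DMSO, 0.315, 0.419 and 0.297 at 6 h, 0.533, 0.743 and 3.31 at 12 h and 1.45, 1.36 and 0.346 at 24 h. Both were highest in riociguat 12 h replicate 3, at 6.78 and 4.46 times the higher of the other 12 h libraries, while both other 12 h libraries were below the highest DMSO library. Oas2 rested on 4 to 67 counts a library. Oasl2, a relative with a ubiquitin-like tail, measured 17.5, 15.7 and 18.2 CPM with DMSO, 13.4, 12.5 and 13.3 at 6 h, 14.9, 15.0 and 42.1 at 12 h and 20.2, 21.6 and 15.5 at 24 h. Its 6 h libraries all lay below its DMSO libraries. Oas3 rested on 2 to 19 counts a library, so its ratio of 3.08 has little precision.

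Other sensors stood out less in that library. Eif2ak2, the kinase PKR that stops translation, measured 30.1, 31.6 and 29.0 CPM with DMSO, 25.6, 35.1 and 29.8 at 6 h, 29.9, 35.2 and 58.7 at 12 h and 37.4, 38.3 and 32.3 at 24 h. Ifih1, the RNA sensor MDA5, measured 22.3, 29.6 and 21.5 CPM with DMSO, 23.5, 25.9 and 20.4 at 6 h, 24.5, 26.6 and 40.3 at 12 h and 31.3, 29.1 and 25.9 at 24 h. Both had their highest value in riociguat 12 h replicate 3, at 1.67 and 1.51 times the next library of the group. Trim25, the ubiquitin ligase that activates RIG-I, measured 93.0, 95.0 and 93.3 CPM with DMSO, 103, 100 and 101 at 6 h, 95.6, 95.0 and 117 at 12 h and 102, 104 and 89.0 at 24 h. Oasl1, a brake on Irf7 translation, measured 17.0, 18.2 and 14.4 CPM with DMSO, 17.4, 15.3 and 18.1 at 6 h, 14.7, 17.0 and 21.3 at 12 h and 19.8, 21.4 and 19.2 at 24 h. In Trim25 the high library was 1.22 times the next, and in Oasl1 it was level with riociguat 24 h replicate 2.

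The ADP-ribosylation genes Parp9, Parp14 and Dtx3l stood at 1.95, 1.85 and 1.94 times. Parp14 measured 34.5, 36.9 and 33.9 CPM with DMSO, 40.3, 35.7 and 39.9 at 6 h, 35.6, 38.6 and 71.5 at 12 h and 42.3, 43.8 and 35.1 at 24 h. Of the guanylate-binding proteins, which attack the vacuoles of intracellular pathogens, Gbp3 stood apart from Gbp2 and Gbp7. Gbp3 measured 4.02, 6.74 and 4.74 CPM with DMSO, 4.48, 3.21 and 3.52 at 6 h, 4.55, 4.62 and 13.8 at 12 h and 6.98, 6.76 and 3.56 at 24 h. Its ratio was 2.99, against 1.34 for Gbp7 and 1.20 for Gbp2. The genes of antigen processing, the immunoproteasome subunits Psmb8 and Psmb9 and the peptide transporter Tap1, had ratios of 0.935, 0.979 and 1.16, and 0 of 3 reached 1.5.

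The remaining genes have less defined roles. Ifi44 measured 0.861, 0.885 and 1.21 CPM with DMSO, 0.944, 0.512 and 1.71 at 6 h, 0.871, 0.495 and 5.98 at 12 h and 2.63, 2.55 and 1.04 at 24 h. Its ratio of 6.86 was the highest of the 38. Xaf1, which favours cell death, measured 4.55, 6.28 and 5.57 CPM with DMSO, 6.06, 4.46 and 4.97 at 6 h, 5.18, 5.16 and 16.1 at 12 h and 9.29, 7.89 and 5.74 at 24 h, with a ratio of 3.10. Ifi27, a protein of mitochondria and the nuclear envelope, measured 51.7, 53.8 and 60.8 CPM with DMSO, 72.8, 55.7 and 62.8 at 6 h, 59.1, 54.8 and 79.8 at 12 h and 65.3, 67.9 and 61.0 at 24 h. Ifi27 and Ifi35 stood at 1.35 and 1.47 times and did not reach 1.5. Per kilobase of exon, DMSO levels ran from 0.0601 CPM for Oas3 to 45.8 CPM for Bst2, with Ifi27 at 37.8 and Trim25 at 16.3.

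**Figure D3:**
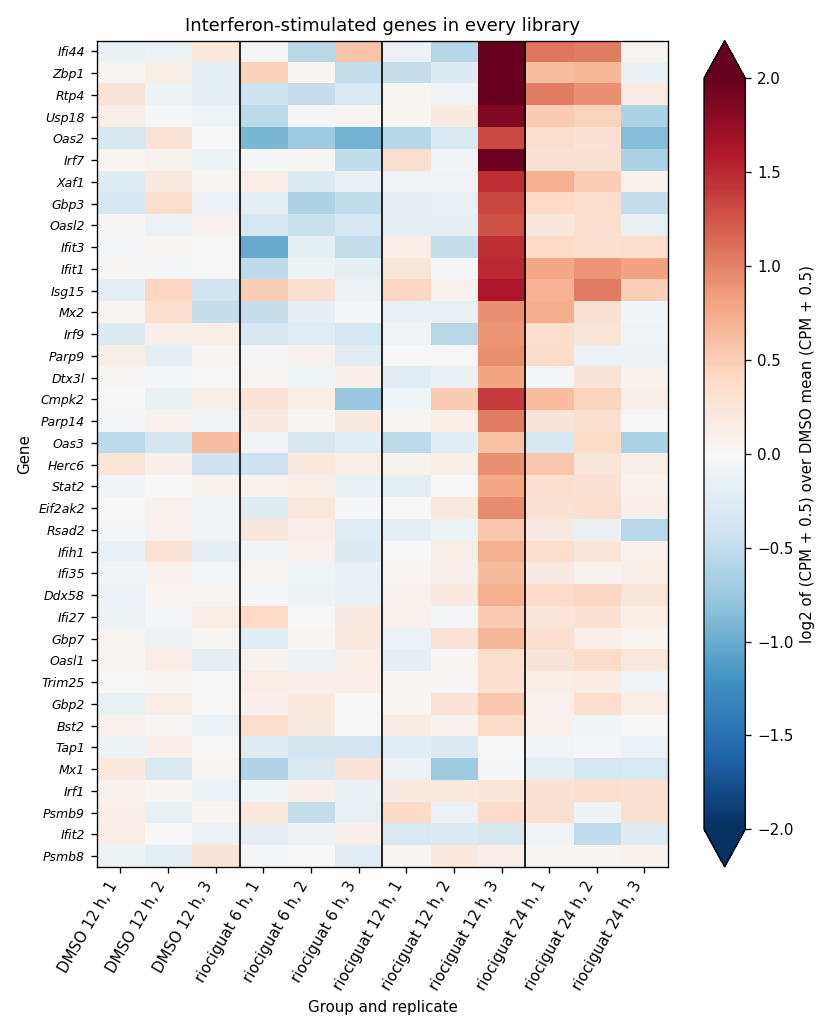
Level of each of the 38 genes in each of the 12 libraries, as log2 of (CPM + 0.5) over the DMSO mean (CPM + 0.5), in a colour scale that ends at -2 and 2, with genes in order of their ratio in riociguat 12 h replicate 3 (CPM + 0.5 on both sides) and lines between the groups. The column of riociguat 12 h replicate 3 is red for most genes down to Gbp2, and riociguat 24 h replicates 1 and 2 are paler red for many of the same genes.

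Neighbouring genes did not stand together in every case. In all, 20 of the 38 genes lie in 8 groups with gaps of at most 200 kb. Positions are from the GENCODE vM21 annotation of GRCm38. On chromosome 19, Ifit2 (chr19:34550694-34576419), Ifit3 (chr19:34583531-34588731) and Ifit1 (chr19:34640871-34650009) are on the plus strand, and their ratios in riociguat 12 h replicate 3 were 0.971, 2.63 and 2.54. On chromosome 5, Oasl2 had 2.80 and Oasl1 had 1.25, while Oas2 and Oas3 had 4.46 and 3.08. Rsad2 and Cmpk2 on chromosome 12 had 1.62 and 2.03. The 38 genes lie on 14 chromosomes. Overlapping genes can share reads, and the labels do not say how strand was handled. This applies to 8 of the 38 genes, such as Dtx3l with Parp9, Psmb9 with Tap1, Irf7 with Phrf1 and Irf9 with Rnf31.

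The same library was also searched across all genes. The 11108 genes with at least 5 CPM in riociguat 12 h replicate 3 were ranked by log2 of (CPM + 0.5) over the higher of the other libraries of the group. The library was already known to stand apart in the 38 genes, so their places in this ranking are a description, not separate support. Of the first 10 genes 9 were among the 38, and of the first 50 genes 19 were. Another 21 were in the lists of interferon pathway genes, among them Irgm2 (25.9 CPM against 9.0 and 10.1), Oas1a (23.7 against 11 and 10.6), Ifi203 (33.4 against 15.6 and 16.3) and Rnf213 (419 against 242 and 240). The 10 genes outside the lists were Gm45234, Gm4070, Gvin1, Apol9b, Trim12c, mt-Atp8, Gm38077, Gm14434, Apol9a and Vps51. Gvin1, a very large interferon-inducible GTPase, measured 64.6 CPM against 31.7 and 31.9. Gm45234 was at 0 in some libraries and reached 15.1 CPM in DMSO replicate 2.

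**Figure D4:**
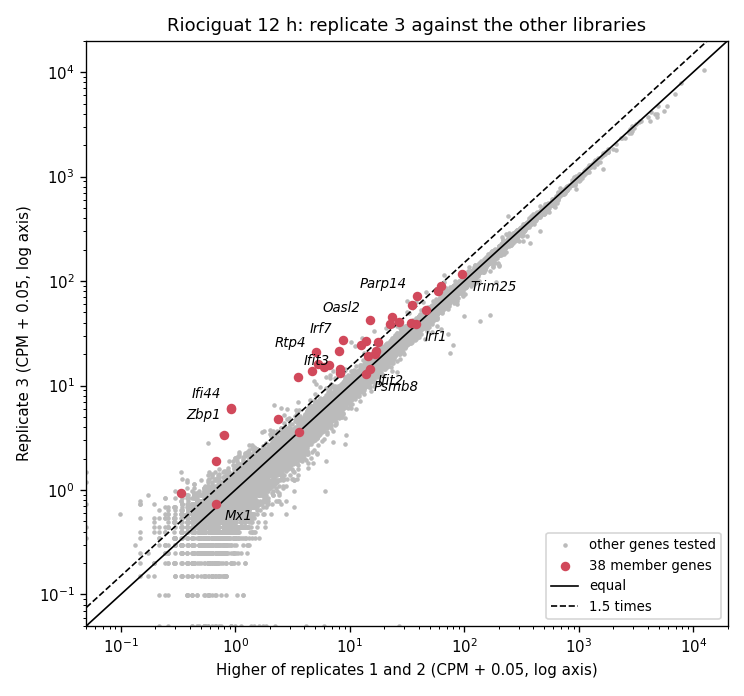
CPM + 0.05 in riociguat 12 h replicate 3 (vertical, log axis) against the higher of the other libraries of that group (horizontal, log axis) for all genes tested (grey) and the 38 interferon-stimulated genes (red), with lines at equality and at 1.5 times. Of the 38 genes, 24 lie on or above the dashed line, and Irf1, Ifit2, Psmb8 and Mx1 lie near equality.

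The genes upstream in the pathway were read in the same library. None of the 10 interferon genes listed passed the filter, and no one of them had more than 4 counts summed over the 12 libraries. Riociguat 12 h replicate 3 had 2 counts, both of Ifne. Ifng, Ifna1, Ifna4, Ifna5, Ifnl2 and Ifnl3 had 0 counts in all 12 libraries. Of the other interferon-stimulated genes listed, 24 of 67 tested reached 1.5 times in that library. Of the sensors and adaptors 1 of 19 did, Dhx58 at 5.93 CPM against 1.65 and 2.81. The counts were 0 of 6 for receptors, 0 of 8 for negative regulators and 0 of 19 for antigen presentation.

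Quality and cell markers of riociguat 12 h replicate 3 were compared with the rest. Its total was 20061026 counts and its mitochondrial share 3.91%, within the range of 2.61% to 4.75%. Its macrophage markers summed to 82.4 CPM, the highest of the 12 libraries, against 76.6 and 79.0 in the others of its group and 80.7 in DMSO replicate 2. Lymphocyte markers summed to 3.31 CPM (range 1.73 to 4.65) and neutrophil markers to 0.543 CPM (range 0.272 to 0.632), with Ly6g and Retnlg at 0 in all 12 libraries. Markers of plasmacytoid dendritic cells summed to 13.8 CPM (range 11.1 to 16.2), nearly all from Il3ra, and Siglech was at 0.0988 CPM there. Endothelial, hepatocyte and stellate sums were 983, 1045 and 3182 CPM. The part of these markers in the pattern was not tested.

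Riociguat and DMSO were both present for 12 h in the first comparison of groups. With edgeR's quasi-likelihood test and Benjamini-Hochberg adjustment over all genes tested, 0 of the 38 genes passed an adjusted p of 0.05, where 2.18% of all genes were called higher and 3.48% lower. At an unadjusted p under 0.05 there were 14, 13 of them higher and 1 lower. The share of all genes at that threshold was not taken, here or in the other comparisons, so this count has no background. DESeq2 called 0, and gave no adjusted p for 4 of the 38 genes. The fitted log2 fold change was positive for 35 of the 38 genes with a median of 0.33. Without replicate 3 it was positive for 19 of the 38 with a median of 0.01, and 0 of the 38 were called, where 1.57% of all genes were called higher and 2.58% lower. For all genes tested the median was 0.00 in both fits.

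Irf7 had a log2 fold change of 1.08 ± 0.39 (SE) against DMSO (edgeR, adjusted p = 0.143), and 0.17 ± 0.26 without replicate 3 (edgeR, adjusted p = 0.846). Ifi44 went from 1.29 ± 0.69 to -0.54 ± 0.55, and Zbp1 from 1.11 ± 0.62 to -0.54 ± 0.47. Rtp4 went from 1.06 ± 0.43 to -0.02 ± 0.25. These large fitted values thus came from 1 of the 3 libraries, and 3 of these 4 genes changed sign without it. The reverse also held: without replicate 1, Ddx58, Parp14 and Eif2ak2 were called higher (edgeR, adjusted p = 0.0211, 0.0415 and 0.0331). Without replicate 2, Irf7 and Ifit1 were called higher (edgeR, adjusted p = 0.0307 and 0.0345). In both of these fits replicate 3 weighs more in its group, so the calls lean on that library and are no separate support. Shares of all genes called in them were not taken.

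Only 2 genes had all 12 h libraries above all DMSO libraries, Irf1 (0.22 ± 0.07) and Ddx58 (0.35 ± 0.12), against 10.5% of all genes tested. Ifit2, a relative of Ifit1 that binds AU-rich RNA, was the 1 gene with all 12 h libraries below all DMSO libraries, against 11.9% of all genes. It measured 19.7, 18.0 and 16.7 CPM with DMSO, 15.8, 16.8 and 19.4 at 6 h, 14.6, 14.9 and 14.5 at 12 h and 17.2, 12.8 and 15.2 at 24 h. Its 12 h value of -0.31 ± 0.11 missed the threshold (edgeR, adjusted p = 0.132) and was -0.30 without replicate 3. The direction in Ifit2 was therefore opposite to that of Ifit1 and Ifit3 with all libraries, and its 3 libraries at 12 h were close together.

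**Figure D5:**
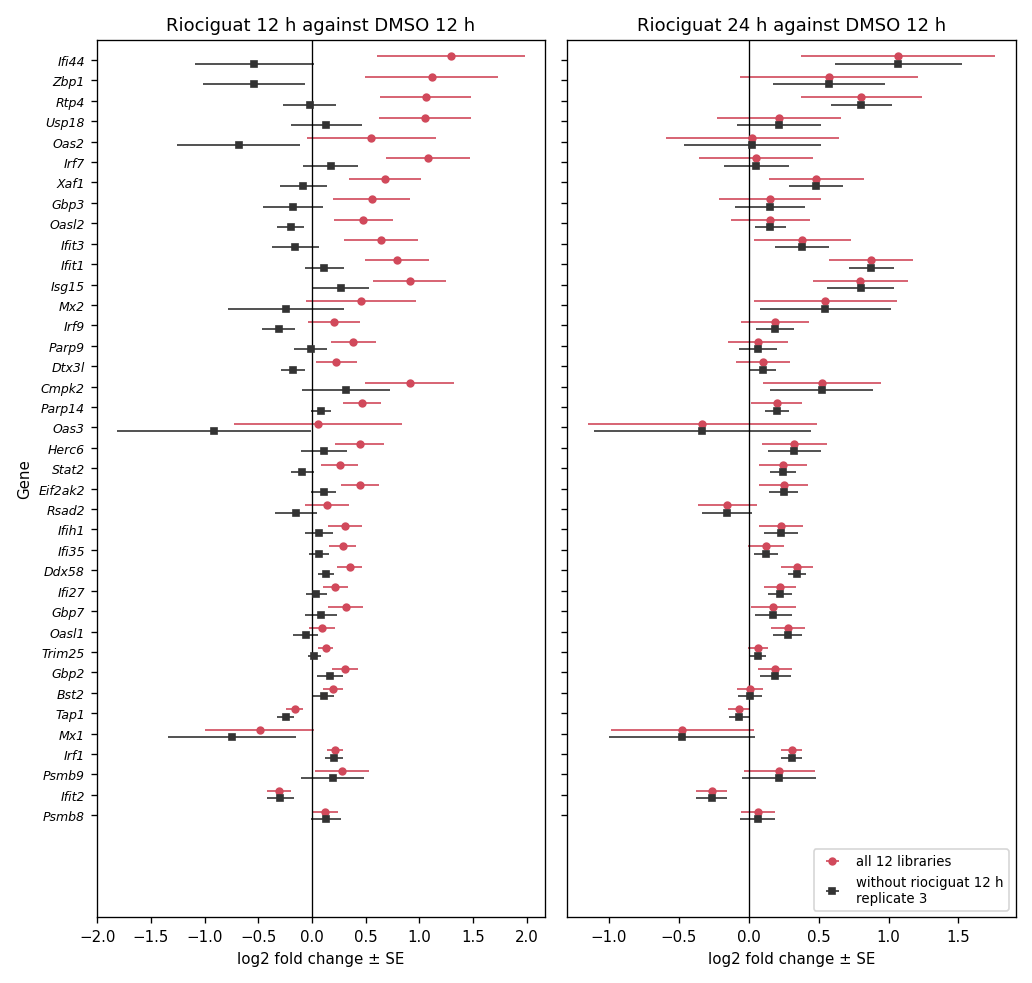
Fitted log2 fold change ± SE (horizontal axes) against DMSO 12 h of the 38 genes after 12 h (left) and 24 h (right) of riociguat, with all 12 libraries (red circles) and without riociguat 12 h replicate 3 (black squares). At 12 h the median goes from 0.33 to 0.01. At 24 h the values stay in place and the error bars of most genes shorten, since all groups share the estimate of the spread.

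After 6 h of riociguat, the comparison with DMSO has unequal exposure times, and it shares the DMSO libraries with the other comparisons. Tap1, a subunit of the peptide transporter for class I molecules, fell by 0.35 ± 0.08 (SE) on the log2 scale (edgeR, adjusted p = 0.0107). It was the 1 gene of the 38 called lower, where 5.24% of all genes tested were, and 0 were called higher, where 4.48% were. Tap1 measured 37.1, 43.1 and 39.7 CPM with DMSO, 33.6, 30.7 and 30.4 at 6 h, 34.5, 33.0 and 39.8 at 12 h and 38.3, 39.0 and 36.9 at 24 h. All 6 h libraries were below all DMSO libraries, and the 24 h libraries were back within the DMSO range or just under it. The call was lost without DMSO replicate 2 (edgeR, adjusted p = 0.0692) and without riociguat 6 h replicate 3 (edgeR, adjusted p = 0.0526). DESeq2, which gave no adjusted p for 6 of the 38 genes, also called 0 higher. At an unadjusted p under 0.05, 0 genes were higher.

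Groups did not overlap at 6 h for 6 genes that were lower, Ifit1, Ifit3, Oas2, Oasl2, Rtp4 and Tap1 (15.8%, against 13.6% of all genes tested). The 1 gene with all 6 h libraries higher was Trim25 (12.1% of all genes). The median log2 fold change of the 38 was -0.07, against 0.00 for all genes. Oas2 had the lowest fitted value, -1.57 ± 0.70, which missed the threshold (edgeR, adjusted p = 0.184). Oasl2 was at -0.40 ± 0.29 (edgeR, adjusted p = 0.193). Without riociguat 12 h replicate 3, which is in neither group but in the estimate of the spread, Oasl2 was called lower at the same fold (edgeR, adjusted p = 0.0401), where 4.69% of all genes were. In that fit 0 of the 38 were called higher, where 3.91% of all genes were. The library left out was known to stand apart in these genes, so the added call is no separate support. Endothelial markers summed to 1278, 1201 and 1247 CPM at 6 h, against 983 to 1071 CPM with DMSO. Hepatocyte markers summed to 962, 1078 and 945 CPM, against 1115 to 1167 CPM. Their part in the 6 h values, here and in the comparison with 24 h, was not tested.

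After 24 h of riociguat, Irf1 rose by 0.31 ± 0.07 (SE) on the log2 scale (edgeR, adjusted p = 0.00959). It was the 1 gene of the 38 called higher, where 5.94% of all genes tested were, and 0 were called lower, where 7.41% were. Irf1 measured 34.1, 33.3 and 29.8 CPM with DMSO, 30.5, 34.9 and 29.6 at 6 h, 36.8, 37.8 and 38.4 at 12 h and 39.7, 40.7 and 40.0 at 24 h. All 24 h libraries lay above all others, and the 3 libraries of the 12 h group were close to each other, unlike in most of the 38 genes. The call was lost without DMSO replicate 3 (edgeR, adjusted p = 0.0564). DESeq2, which gave no adjusted p for 3 of the 38 genes, also called 0 lower. At an unadjusted p under 0.05, 1 gene, Ifit2, was lower.

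More genes had separated groups at 24 h than had calls. In 9 of the 38 genes (23.7%) all 24 h libraries were above all DMSO libraries, against 12.6% of all genes tested, and in 0 were all below, against 15.7%. The 9 were Irf1, Stat2, Isg15, Ifit1, Ifit3, Ifi27, Ddx58, Oasl1 and Eif2ak2. The fitted value was positive in 33 of the 38 with a median of 0.21, against -0.01 for all genes. Ifit1, which binds foreign RNA caps, measured 4.98, 4.76 and 4.89 CPM with DMSO, 3.22, 4.51 and 4.26 at 6 h, 5.86, 4.70 and 14.9 at 12 h and 8.66, 9.37 and 8.85 at 24 h. Its 24 h libraries were close together, above the DMSO libraries and below riociguat 12 h replicate 3, and its log2 fold change was 0.88 ± 0.30 (edgeR, adjusted p = 0.064). Ddx58, the RNA sensor RIG-I, measured 51.2, 57.3 and 57.3 CPM with DMSO, 53.6, 51.4 and 50.2 at 6 h, 58.5, 62.6 and 90.5 at 12 h and 71.9, 73.5 and 65.4 at 24 h. Its change of 0.34 ± 0.12 also missed the threshold (edgeR, adjusted p = 0.0581).

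Without riociguat 12 h replicate 3, the estimate of the spread was smaller for most of the 38 genes. In that fit 5 were called higher at 24 h, where 5.55% of all genes were, and 0 lower, where 6.92% were. The log2 fold changes were 0.31 for Irf1, 0.80 for Isg15, 0.88 for Ifit1, 0.34 for Ddx58 and 0.81 for Rtp4. The edgeR adjusted p-values were 0.0138, 0.0367, 0.00143, 0.00187 and 0.0209 in that order. With all libraries, Isg15 and Rtp4 had adjusted p-values of 0.141 and 0.252 in edgeR's test. The library left out was known beforehand to stand apart in these genes, so their spread is lowered by that choice. The added calls are no separate support, and the share of all genes is not a like-for-like background for them.

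The 24 h libraries were not alike. In replicate 3, 8 of the 38 genes were lower than in both others by a factor of at least 1.5, against 4.08% of all genes tested. They were Irf7, Usp18, Rtp4, Zbp1, Oas2, Oas3, Gbp3 and Ifi44, all of them genes that stood high in riociguat 12 h replicate 3. The counts of genes above all DMSO libraries were 30, 26 and 13 of 38 in the 24 h libraries, 8, 9 and 33 in the 12 h libraries and 11, 8 and 7 in the 6 h libraries. Over all genes tested the share above all DMSO libraries lay between 26.3% and 30.8% in these 9 libraries. Hepatocyte markers summed to 644, 744 and 530 CPM at 24 h against 1115 to 1167 CPM with DMSO, and endothelial markers to 802, 831 and 854 CPM against 983 to 1071 CPM. Their part in the 24 h values was not tested.

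Between 6 h and 24 h of riociguat, 4 of the 38 genes were higher at 24 h, where 7.16% of all genes tested were, and 0 were lower, where 8.13% were. DESeq2, which gave no adjusted p for 2 of the 38 genes, also called 0 lower. At an unadjusted p under 0.05, 0 were lower. The log2 fold changes ± SE were 0.34 ± 0.07 for Irf1 (edgeR, adjusted p = 0.00406) and 1.14 ± 0.31 for Ifit1 (edgeR, adjusted p = 0.0174). They were 0.44 ± 0.12 for Ddx58 (edgeR, adjusted p = 0.0149) and 0.28 ± 0.08 for Tap1 (edgeR, adjusted p = 0.0287). Ifit1 more than doubled, while Tap1 returned from its lower 6 h level. In 12 of the 38 genes (31.6%) all 24 h libraries were above all 6 h libraries, against 14% of all genes.

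Of these calls, Irf1 held when any 1 library of the 6 h or 24 h group, or riociguat 12 h replicate 3, was left out. Ifit1 was lost without riociguat 6 h replicate 1 or 3 (edgeR, adjusted p = 0.0662 and 0.0511), and Ddx58 without riociguat 6 h replicate 3 or riociguat 24 h replicate 2 (edgeR, adjusted p = 0.0602 and 0.051). Tap1 was lost when replicate 2 or 3 of the 6 h group, or replicate 1 or 2 of the 24 h group, was left out, with edgeR adjusted p-values up to 0.11. Without riociguat 12 h replicate 3, 8 genes were called higher, where 6.78% of all genes were, and 0 lower, where 7.7% were. The added ones were Irf9 at 0.49, Ifit3 at 0.91, Oasl2 at 0.55 and Rtp4 at 1.24 (edgeR, adjusted p = 0.021, 0.00457, 0.00321 and 0.00104). Here too the library left out was known to stand apart in these genes, so the added calls are no separate support.

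The receptors are the entry point of the pathway. Ifnar1, the signalling chain of the type I receptor, measured 92.9, 94.8 and 95.1 CPM with DMSO, 104, 103 and 96.8 at 6 h, 107, 114 and 104 at 12 h and 105, 115 and 104 at 24 h. Ifnar2, its high-affinity chain, measured 91.8, 91.9 and 91.0 CPM with DMSO, 102, 105 and 94.8 at 6 h, 110, 111 and 103 at 12 h and 107, 115 and 103 at 24 h. In both, every riociguat library was above every DMSO library, and riociguat 12 h replicate 3 was the lowest of its group. Ifnar1 rose by 0.20 on the log2 scale at 12 h and at 24 h (edgeR, adjusted p = 0.0295 and 0.0183), and Ifnar2 by 0.24 at both (edgeR, adjusted p = 0.0105 and 0.00586). The Ifnar1 call at 12 h was lost when any 1 library of either group other than replicate 3 was left out, with edgeR adjusted p up to 0.179. At 24 h it was lost without DMSO replicate 2 or riociguat 24 h replicate 2, with edgeR adjusted p up to 0.0894. The Ifnar2 call at 12 h was lost without riociguat 12 h replicate 2 (edgeR, adjusted p = 0.0677). In all, 2 of the 6 receptors were called higher at 12 h and at 24 h, where 2.18% and 5.94% of all genes were. The other 4 receptors, Ifngr1, Ifngr2, Ifnlr1 and Il10rb, were not called in any of the 4 comparisons.

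Of the 5 kinases and STATs, 1 was called higher at 12 h and at 24 h, where 2.18% and 5.94% of all genes were. This gene was Stat3. It encodes the factor downstream of interleukin 6 family cytokines and measured 207, 205 and 217 CPM with DMSO, 214, 207 and 214 at 6 h, 239, 232 and 235 at 12 h and 289, 283 and 272 at 24 h. It rose by 0.43 ± 0.04 at 24 h (edgeR, adjusted p = 1.47e-06), with no overlap of the groups. At 12 h it rose by 0.17 (edgeR, adjusted p = 0.0191). Without replicate 3 the fold was also 0.17 but missed the threshold (edgeR, adjusted p = 0.0631). Jak1 and Jak2 were not called in any comparison. Tyk2 was lower at 24 h than at 6 h by -0.21 (edgeR, adjusted p = 0.0443), a call lost under several alternatives. It was the 1 kinase or STAT called lower there, where 8.13% of all genes were.

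The negative regulators changed in opposite directions. Socs3, the inhibitor induced by Stat3, measured 44.9, 41.5 and 41.8 CPM with DMSO, 43.6, 39.4 and 39.1 at 6 h, 48.8, 53.6 and 48.7 at 12 h and 64.1, 70.5 and 69.3 at 24 h. It rose by 0.24 at 12 h (edgeR, adjusted p = 0.0412) and by 0.67 at 24 h (edgeR, adjusted p = 1.95e-06). Tnfaip3, the ubiquitin-editing enzyme A20, measured 69.7, 66.9 and 69.7 CPM with DMSO, 51.1, 51.8 and 50.5 at 6 h, 54.8, 57.2 and 58.1 at 12 h and 48.8, 48.1 and 47.9 at 24 h. It fell by 0.43, 0.28 and 0.51 at 6, 12 and 24 h (edgeR, adjusted p = 2.77e-05, 0.00183 and 2.42e-06). Of the 8 negative regulators these were the only ones called in the comparisons with DMSO. Shares of all genes called higher were 4.48%, 2.18% and 5.94% at 6, 12 and 24 h. Shares called lower were 5.24%, 3.48% and 7.41%. Without replicate 3 the Socs3 value at 12 h was 0.26 and missed the threshold (edgeR, adjusted p = 0.0629).

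Of the 19 sensors and adaptors tested, 1 was called lower at 12 h, 1 higher at 6 h, and 1 higher and 1 lower at 24 h. In the comparison of 24 h with 6 h, 2 were higher and 2 lower. Shares of all genes called higher and lower were 2.18% and 3.48% at 12 h and 4.48% and 5.24% at 6 h. They were 5.94% and 7.41% at 24 h, and 7.16% and 8.13% between 6 h and 24 h. Mavs, the mitochondrial adaptor of RIG-I, fell by 0.30 at 12 h and by 0.27 at 24 h (edgeR, adjusted p = 0.0163 and 0.0194). Sting1, the adaptor for cytosolic DNA, rose by 0.23 at 24 h (edgeR, adjusted p = 0.0281), and Tlr4, the endotoxin receptor, rose by 0.39 at 6 h (edgeR, adjusted p = 0.023). Between 6 h and 24 h, the exonuclease gene Trex1 was higher at 24 h by 0.52 and Sting1 by 0.24 (edgeR, adjusted p = 0.0117 and 0.0194). The factors Irf3 and Irf8 were lower at 24 h, at -0.27 and -0.48 (edgeR, adjusted p = 0.0068 and 0.00456). Without replicate 3 the Mavs value at 12 h was -0.29 and missed the threshold (edgeR, adjusted p = 0.0656).

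Of the 67 other interferon-stimulated genes tested, 4 were higher and 3 lower at 24 h, where 5.94% and 7.41% of all genes were. At 12 h 2 were higher and 1 lower, against 2.18% and 3.48%, and at 6 h 2 were higher and 3 lower, against 4.48% and 5.24%. Without riociguat 12 h replicate 3 the counts were 7 higher and 2 lower at 24 h, where 5.55% and 6.92% of all genes were. At 12 h they were 0 and 0 in that fit, against 1.57% and 2.58%. At 6 h they were 2 higher and 6 lower, against 3.91% and 4.69%. Iigp1, a GTPase of the immunity-related family, measured 13.1, 10.8 and 9.30 CPM with DMSO, 11.3, 13.3 and 11.8 at 6 h, 14.6, 18.8 and 23.6 at 12 h and 39.9, 28.8 and 28.7 at 24 h. It rose by 1.55 ± 0.17 at 24 h (edgeR, adjusted p = 4.61e-06) and by 0.78 ± 0.17 at 12 h (edgeR, adjusted p = 0.00851). All 12 h libraries were above all DMSO libraries and below all 24 h libraries, and without replicate 3 the 12 h value of 0.59 missed the threshold (edgeR, adjusted p = 0.0552). Ifitm3 and Ifitm2, which block viral fusion, rose by 0.52 and 0.33 at 24 h (edgeR, adjusted p = 8.19e-05 and 0.000382). Ly6a, a stem cell antigen, rose by 0.36 at 6 h (edgeR, adjusted p = 0.0184) and fell by 0.48 at 24 h (edgeR, adjusted p = 0.00257).

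At 6 h, Slfn9, Mov10 and the chemokine gene Cxcl10 fell by 0.60, 0.45 and 0.71 (edgeR, adjusted p = 0.00262, 0.00809 and 0.0138). At 12 h, Ifi47 fell by 0.59 and Ifi204 rose by 0.36 (edgeR, adjusted p = 0.0193 and 0.0483), and neither was called without replicate 3, at -0.62 for Ifi47 and 0.24 for Ifi204. Between 6 h and 24 h, 11 of the 67 were higher at 24 h, where 7.16% of all genes were, and 2 lower, where 8.13% were. Without riociguat 12 h replicate 3 they were 13 and 2, against 6.78% and 7.7% of all genes. The higher ones included Slfn9 at 0.99, Iigp1 at 1.41 and Ifitm3 at 0.50 (edgeR, adjusted p = 9.1e-06, 1.01e-05 and 9.6e-05). Ly6a was one of those lower, at -0.85 (edgeR, adjusted p = 7.36e-06). The list median in that comparison was 0.17, against -0.01 for all genes. Near-identical copies such as Ifit3 and Ifit3b, or the Oas1 genes, can share reads.

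Of the 19 antigen presentation genes tested, 1 was called higher at 12 h, where 2.18% of all genes were. At 6 h and at 24 h 1 was lower, where 5.24% and 7.41% of all genes were. Between 6 h and 24 h 2 were higher, where 7.16% of all genes were. The gene higher at 12 h was the proteasome activator subunit Psme1, at 0.22 (edgeR, adjusted p = 0.0314). Without replicate 3 it was at 0.21 and missed the threshold (edgeR, adjusted p = 0.107). H2-Q6, a class I gene with near copies, measured 103, 106 and 111 CPM with DMSO, 74.9, 80.1 and 73.7 at 6 h, 100, 100 and 98.0 at 12 h and 115, 115 and 122 at 24 h. It fell by 0.49 at 6 h (edgeR, adjusted p = 4.95e-06) and was 0.62 higher at 24 h than at 6 h (edgeR, adjusted p = 1.66e-07). H2-Q4 was 0.18 higher at 24 h than at 6 h (edgeR, adjusted p = 0.0179). H2-Q6 was the 1 gene of this list called lower at 6 h, and the list median there was -0.038, against -0.004 for all genes. H2-Aa, a class II gene of antigen-presenting cells at 1.58 to 5.47 CPM, fell by 0.94 at 24 h (edgeR, adjusted p = 0.0304). Without riociguat 12 h replicate 3, each call named here for a pathway gene at 6 h or 24 h against DMSO was made again. Between 6 h and 24 h the same held for each of them except Tyk2 (edgeR, adjusted p = 0.0565).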

How the data were processed

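The 12 RNA sequencing libraries fall into 4 groups of 3 by their labels. The authors deposited expected counts per gene as whole numbers, and rounding changed none. The submitters' processing notes name Salmon, fastp, FastQC, DESeq2 and the build GRCm38, with no role or version. Annotation release and strandedness are not given in the sources used here. Salmon shares reads between similar transcripts, so near-identical genes are uncertain.

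Counts were tested in R 4.3.3 with edgeR 4.0.16 (filterByExpr, TMM, glmQLFit, glmQLFTest, two-sided, group as the only term, all 12 libraries, Benjamini-Hochberg over 16036 genes, adjusted p under 0.05). The biological coefficient of variation was 0.0798, with 8 residual and 8.80 prior degrees of freedom. Standard errors come from the moderated F statistic. DESeq2 1.42.0 was an alternative. Steps were tested on simulated counts. The 34 genes with at least 10 counts in every library are measured most precisely. Replicate numbers do not pair the libraries: of 18 pairs with the same number, 0 had deviations correlated over 0.1 (r from -0.136 to 0.0843).

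The 38 genes, pathway lists and markers were chosen with earlier results of these data known. Every-library values are given for genes called in any comparison, for the 12 further with the highest mean CPM and for 10 with the highest ratio in riociguat 12 h replicate 3. For this choice the ratio was taken with 0.5 CPM added on both sides, unlike the ratios printed for single genes. For pathway lists, receptors, kinases and STATs are named (1 listed gene is not reported here), with up to 4 called genes of smallest p for each other list and comparison. Gene names matched 53355 of 53452 identifiers.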

Additional observations from a re-analysis of the deposited data

Results flagged for a closer look

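For 4 genes the level differed between exposure times by the test of the difference itself, riociguat 24 h against riociguat 6 h. The log2 differences were 0.34 for Irf1, 1.14 for Ifit1, 0.44 for Ddx58 and 0.28 for Tap1, each higher at 24 h in all 3 libraries than in any 6 h library. The compound was added at different times after the medium change, although all groups ended at the same time after it. Exposure time and the stage of culture at addition therefore cannot be told apart in these differences.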

How the results depend on the processing

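Counts of the 38 genes called with 16036 genes fitted were compared with those under other settings. Without the filter on low counts, 31124 genes were fitted and the spread of each gene was taken wholly from the trend (an infinite prior in place of 8.80 degrees of freedom). Calls then went from 0 to 16 higher at 12 h, from 0 to 1 higher and 1 to 5 lower at 6 h, from 1 to 8 higher at 24 h, and from 4 to 14 higher between 6 h and 24 h. With only the 6 libraries compared, they were 2 lower at 6 h, 3 higher at 24 h and 8 higher between 6 h and 24 h. With a robust spread, 2 were higher between 6 h and 24 h. Leaving out 1 library of the groups compared, or riociguat 12 h replicate 3, gave 0 to 3 higher at 12 h, 0 to 2 lower at 6 h, 0 to 5 higher and 0 to 1 lower (Ifit2, without riociguat 24 h replicate 1) at 24 h, and 1 to 8 higher between 6 h and 24 h. Apart from the fit without riociguat 12 h replicate 3, shares of all genes called under these other settings were not taken. Their counts therefore show how the calls depend on the setting and have no background. At 12 h, 16 of the 38 genes had a positive log2 fold change that was negative without riociguat 12 h replicate 3. Of the 10 with the highest ratio in that library, taken with 0.5 CPM added on both sides, 8 did. With each library left out in turn their ranges were -0.54 to 1.79 for Ifi44, -0.54 to 1.56 for Zbp1, -0.021 to 1.42 for Rtp4 and -0.68 to 0.95 for Oas2. They were -0.082 to 0.96 for Xaf1, -0.18 to 0.82 for Gbp3, -0.20 to 0.73 for Oasl2 and -0.15 to 1.0 for Ifit3. At 2-fold, 15 of the 38 genes stood high in that library, where 0.91% of all genes tested did. Of all promoters, 0.944% held the motif followed by C. With DESeq2 or its size factors, no count of calls changed. DESeq2 gave no adjusted p for 4 of the 38 genes at 12 h and 6 at 6 h. It gave none for 3 at 24 h and 2 between 6 h and 24 h. These genes were counted as not called.

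Replicate numbers do not pair the libraries. With the number as a replicate block, the counts of calls stayed at 0, 1, 1 and 4 in the comparisons at 12 h, 6 h, 24 h and between 6 h and 24 h. Depth limits Oas3, Oas2, Mx1, Mx2, Ifi44 and Zbp1, whose lowest counts were 2, 4, 4, 5, 11 and 14.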
